A study of Mus musculus with 5 samples.

Results

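Heat shock proteins and their DnaJ co-chaperones were described across a dilution of adult mouse colon RNA into RNA of the whole newborn mouse. Members were all genes whose annotated symbol begins with Hspa, Hspb, Hspd, Hspe, Hsph, Hsp90 or Dnaj, other than Hspbap1 and Hspbp1, on probe sets annotated to 1 gene. This gave 60 of the 12393 genes named on the array, measured by 121 of 22626 probe sets. Each gene was represented by its probe set with the highest mean over the 5 arrays, and Hspa8 was described by all 4 of its probe sets, so that 63 probe sets were followed.

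The heat shock proteins are chaperones that bind unfolded protein and help it fold, stay soluble or be degraded. HSP70s work in cycles of ATP hydrolysis that J-domain (DnaJ) proteins start and HSP110s reset by exchanging nucleotide, HSP90s act later on near-native clients, and the HSP60 chaperonin with its HSP10 lid folds proteins inside mitochondria. The small heat shock proteins hold unfolding proteins without ATP and are abundant in muscle, lens and skin, while the endoplasmic reticulum of secretory cells, such as those of the gut, carries its own HSP70, HSP90 and DnaJ proteins.

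Each array held 10 ng of total RNA, amplified in 2 rounds by T7 transcription. The RNA came from 2 pools of C57BL/6 mice, each made from several animals with no further treatment given in the labels: adult colon at 8 weeks and whole mouse at 1 day of age. The colon made up 0%, 25%, 50%, 75% or 100% of the RNA, on 1 array per mix. No mix was replicated, tissue and age differed together, and the whole newborn includes its own colon. In such bulk RNA, fewer cells of a type and less RNA per cell cannot be told apart. Values are log2 signals made by the authors, and their precision is limited by the number of arrays. Values on all 5 arrays are given in order of rising colon share.

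The arrays had close medians, from 6.92 at 25% colon down to 6.83 in undiluted colon. Quantile normalization of the signals brings medians together, so this is no check of the RNA. The marker lists were chosen with earlier results of these data known, so they describe the tissue labels and do not test them. All 7 markers of colon epithelium were at least 2-fold higher in colon, with a mean log2 signal of 11.95 in colon and 7.44 in whole mouse. All 10 markers of striated muscle were at least 2-fold lower in colon, with means of 5.73 in colon and 12.44 in whole mouse. All 5 epidermal markers were lower too, at 5.94 in colon and 12.31 in whole mouse. Bacterial poly-A control probe sets, which match no mouse gene, lay between 2.91 and 5.23, and 3 members, Hspa1l, Dnajb3 and Dnajb7, did not exceed that level on any array.

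A straight line over the colon share was fitted to each probe set's log2 signal with limma, and its slope estimates colon minus whole mouse in log2 units. A gene "rose" or "fell" when the slope passed an adjusted p of 0.05 (Benjamini-Hochberg over all probe sets). A bend in the log2 signal over the colon share counts as spread in this fit, so a large difference can fail to pass. The muscle marker Tnnc2 had 13.66 in whole mouse and 4.83 in colon, with an adjusted p of 0.132. For the colon marker Car1 these values were 6.62, 14.02 and 0.174. Of the 60 members 4 rose and 7 fell, where 9.8% of all genes rose and 14.5% fell, or 24.3% in either direction. Among all 121 probe sets of the members 8 rose and 11 fell, where 8.63% of all probe sets rose and 10.9% fell. The members' median slope was 0.05 log2, against −0.0091 over all genes. The falls were concentrated in 1 subfamily by count: 5 of the 6 small heat shock proteins fell, and 2 of the other 54 members did. The members that rose were Hspa1a, Dnajb11, Dnajc10 and Hspb11. With each array centred on its median, 12 members rose and 7 fell, counted on 1 probe set a gene. Over all probe sets 13.9% rose and 10.3% fell, with a median slope of 0.0993 after centring and 0.0157 before it. The shares over all genes were not counted after centring. Leaving out the whole mouse array or the 50% mix left 1 rise among the members, and leaving out the 75% mix or the colon array left none. Over all 22626 probe sets these 4 fits left 489, 491, 222 and 168 rises, against 1953 with all 5 arrays. The number of members that fell was 4 without the colon array, where 829 of all probe sets fell, against 2456 with all 5 arrays. Each of these fits has 1 residual degree of freedom less.

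**Figure D1:**
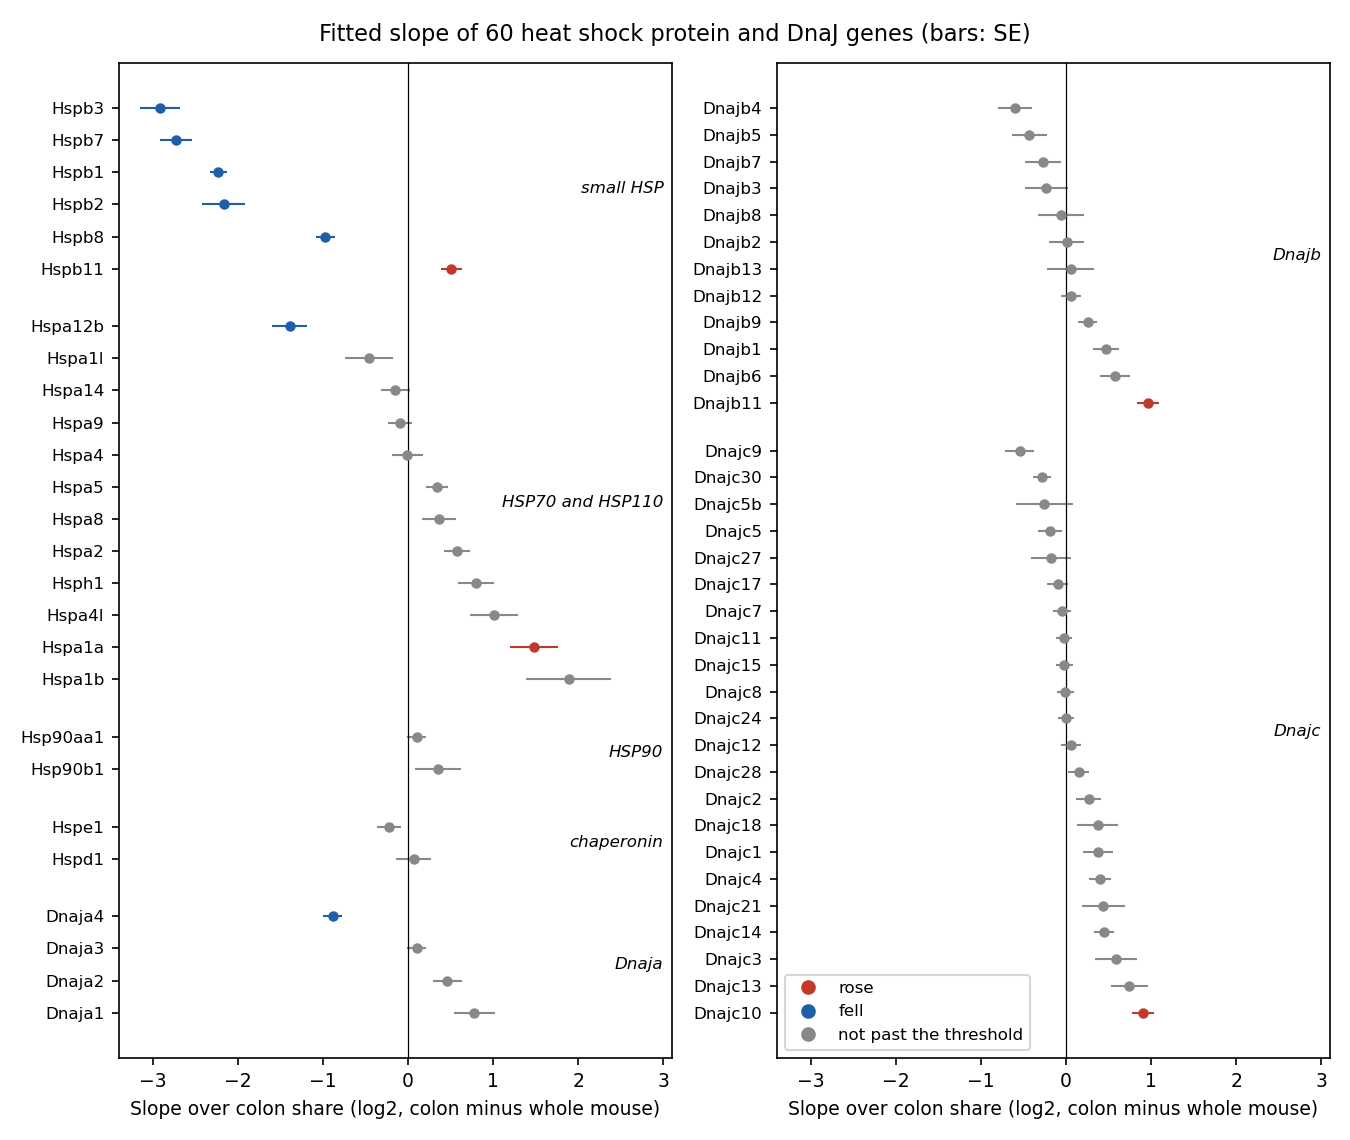
Fitted slope of each of the 60 members over the colon share, in log2 units (colon minus whole mouse), with its SE as a bar, grouped by subfamily. The 5 small heat shock proteins from Hspb3 to Hspb8 lie at −2.92 to −0.98, and most other members lie near 0, with Hspa1a and Hspa1b farthest to the right.

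Between the undiluted arrays, which have 1 array each and no test, 4 members were at least 2-fold higher in colon and 6 at least 2-fold lower. The shares over all genes were 9.26% higher and 10.4% lower. The 4 higher ones were the HSP70s Hspa1a and Hspa1b, the HSP110 Hspa4l and the endoplasmic reticulum co-chaperone Dnajb11. The 6 lower ones were Hspb1, Hspb2, Hspb3, Hspb7, Hspb8 and the HSP70 relative Hspa12b. The 5 signals stood in strict rising order in 5 members (8.66% of all genes) and in strict falling order in 7 (12.1% of all genes), and these 7 were the members that fell.

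The promoters of the members were searched for elements known to switch on chaperone genes. The heat shock element, bound by the heat shock factor Hsf1, is built of alternating GAA and TTC units, and was searched on both strands as GAANNTTC (units head to head) and TTCNNGAA (tail to tail), each of which reads the same on both strands. A trimer, GAANNTTC followed by any 2 letters and GAA, or its reverse complement, holds both of them overlapping. RefSeq windows from 250 bases before to 50 after the annotated start (build GRCm38.p6) were matched for 49 of the 60 members, in 63 windows. At least 1 such pair of units lay in 25.4% of the members' windows and in 15.1% of all 32851 windows. The trimer lay in 9.52% of the members' windows and in 0.603% of all windows, in the genes Dnajb6, Hspd1, Hspe1 and Hsph1. Overlapping windows can hold the same site, as those of Dnajb6, those of Hsph1, and those of Hspd1 and Hspe1 do. By gene the trimer lay in 8.16% of members and 0.662% of all genes with a window. The longer element of the endoplasmic reticulum stress response, CCAAT and CCACG with any 9 letters between them on either strand, lay in the windows of Hspa5, Hsp90b1 and Dnajc3, 4.76% of the members' windows against 0.119% of all windows. A match is a description of the letters in the window and not a sign that the site is used.

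The windows below are those of genes whose signals are compared further on, printed 5′ to 3′ on the gene's own strand. Capitals mark the heat shock pairs, and in Hspa5 and Dnajc3 the endoplasmic reticulum stress element.
Hspa1a (GRCm38.p6 chr17:34972107-34972406, minus strand): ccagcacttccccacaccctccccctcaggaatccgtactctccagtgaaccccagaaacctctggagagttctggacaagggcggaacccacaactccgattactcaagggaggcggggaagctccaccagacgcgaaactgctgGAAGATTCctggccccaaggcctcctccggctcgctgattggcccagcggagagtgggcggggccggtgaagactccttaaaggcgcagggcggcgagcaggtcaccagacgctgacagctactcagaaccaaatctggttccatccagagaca
Hspa1b (GRCm38.p6 chr17:34959189-34959488, minus strand): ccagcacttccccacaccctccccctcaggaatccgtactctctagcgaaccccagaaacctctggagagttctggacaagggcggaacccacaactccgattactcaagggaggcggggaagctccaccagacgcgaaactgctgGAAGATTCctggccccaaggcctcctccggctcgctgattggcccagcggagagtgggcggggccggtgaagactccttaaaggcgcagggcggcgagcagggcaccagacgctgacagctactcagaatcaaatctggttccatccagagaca
Hsph1 (GRCm38.p6 chr5:149636266-149636565, minus strand): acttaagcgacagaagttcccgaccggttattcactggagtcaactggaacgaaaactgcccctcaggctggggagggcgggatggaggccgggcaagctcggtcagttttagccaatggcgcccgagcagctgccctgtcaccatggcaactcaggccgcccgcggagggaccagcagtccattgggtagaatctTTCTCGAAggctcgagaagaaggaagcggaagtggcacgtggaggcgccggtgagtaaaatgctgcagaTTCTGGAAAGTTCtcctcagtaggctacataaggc
Hspb1 (GRCm38.p6 chr5:135887669-135887968, plus strand): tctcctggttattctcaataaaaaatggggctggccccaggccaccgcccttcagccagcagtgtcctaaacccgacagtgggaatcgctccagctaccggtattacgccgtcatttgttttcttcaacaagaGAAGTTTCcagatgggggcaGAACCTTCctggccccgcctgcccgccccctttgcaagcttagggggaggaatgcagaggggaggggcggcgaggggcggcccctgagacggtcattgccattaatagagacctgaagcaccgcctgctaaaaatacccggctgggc
Hspe1 (GRCm38.p6 chr1:55087898-55088197, plus strand): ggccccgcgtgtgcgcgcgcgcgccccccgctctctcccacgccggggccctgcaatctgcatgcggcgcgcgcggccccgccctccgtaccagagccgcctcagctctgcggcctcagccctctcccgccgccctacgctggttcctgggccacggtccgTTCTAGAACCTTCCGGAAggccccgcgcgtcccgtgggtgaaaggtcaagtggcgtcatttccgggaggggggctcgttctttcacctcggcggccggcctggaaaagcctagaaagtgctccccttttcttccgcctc
Hspa5 (GRCm38.p6 chr2:34771840-34772139, plus strand): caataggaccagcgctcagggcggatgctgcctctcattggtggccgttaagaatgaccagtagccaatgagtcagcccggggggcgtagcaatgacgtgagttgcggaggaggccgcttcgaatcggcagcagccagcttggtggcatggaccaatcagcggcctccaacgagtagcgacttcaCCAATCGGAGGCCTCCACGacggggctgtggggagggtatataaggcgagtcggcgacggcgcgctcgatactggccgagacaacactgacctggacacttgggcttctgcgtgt
Dnajc3 (GRCm38.p6 chr14:118937682-118937981, plus strand): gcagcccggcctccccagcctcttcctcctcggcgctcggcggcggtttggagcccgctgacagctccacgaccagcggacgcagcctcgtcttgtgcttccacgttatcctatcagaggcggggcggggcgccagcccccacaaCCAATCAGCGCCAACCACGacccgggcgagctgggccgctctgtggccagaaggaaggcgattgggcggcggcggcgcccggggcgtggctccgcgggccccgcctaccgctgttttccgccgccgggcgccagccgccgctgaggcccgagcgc
The windows of Hspa1a and Hspa1b were identical at 296 of 300 positions, and in both the pair of units began 104 bases before the start. The Hspe1 window overlaps a window of Hspd1 on the other strand by 285 bases, since the 2 genes lie head to head, and the 3 capitalised pairs of Hspe1 are therefore also those of Hspd1. In Hspb1 the pairs began 117 and 97 bases before the start.

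The small heat shock proteins gave the largest falls among the members. Hspb1 (HSP25 in mouse), which protects actin filaments and is abundant in muscle and skin, had 12.73, 12.26, 11.61, 11.13 and 10.51. Each array lay below the one with less colon, and the slope was −2.23 log2 (SE 0.10, adjusted p = 0.00357). Its other probe set had 12.36, 11.75, 11.31, 10.87 and 10.17, with a slope of −2.10 (adjusted p = 0.00381), so both gave the same order and nearly the same size. Hspb1 is also the 1 heat-inducible gene, of 12 listed, that fell.

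Hspb7, a small heat shock protein of heart and skeletal muscle that binds filamin C, had 9.59, 8.66, 7.90, 7.56 and 6.73. The slope was −2.73 log2 (SE 0.19, adjusted p = 0.0042). All 3 of its probe sets fell, and the smallest slope, −0.82, was that of the dimmest. Hspb3, expressed mainly in muscle, had 8.53, 7.84, 7.23, 6.69 and 5.46, the lowest value again in undiluted colon. Its slope of −2.92 log2 (SE 0.23, adjusted p = 0.00495) was the most negative of all members. Hspb2, which binds and activates the myotonic dystrophy kinase, had 9.85, 8.94, 8.51, 8.36 and 7.43 and fell by 2.17 log2 (SE 0.25, adjusted p = 0.00957).

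Hspb8, the partner of the co-chaperone Bag3 in chaperone-assisted autophagy, had 9.39, 9.21, 8.99, 8.77 and 8.39. Its slope of −0.98 log2 (SE 0.11, adjusted p = 0.00913) was the smallest of the 5 in size. Its other 2 probe sets had slopes of −0.66 and −0.40 and did not pass (adjusted p = 0.057 and 0.284). Bag3 itself had 9.35, 9.73, 9.81, 9.83 and 9.92, with a slope of 0.50 in the other direction (adjusted p = 0.0788). Hspb11, a small heat shock protein by symbol that works as a subunit of intraflagellar transport, had 7.56, 7.78, 7.84, 7.85 and 8.16. It rose by 0.51 log2 (SE 0.12, adjusted p = 0.0491), close to the threshold, and it no longer passed when any 1 array was left out. Its other probe set stayed between 2.88 and 3.07, near the lowest of the poly-A controls.

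Hspb1, Hspb3 and Hspb7 passed without each array in turn, Hspb8 in 4 and Hspb2 in 3 of these 5 leave-one-out fits. The lens and muscle protein Cryab, a small heat shock protein outside the naming rule and the neighbour of Hspb2 on chromosome 9, had 11.46, 10.83, 10.26, 9.60 and 8.73 in its brightest probe set (slope −2.68, adjusted p = 0.00363), while its least steep probe set had a slope of −0.19. The lens protein Cryaa had 10.06, 9.44, 8.44, 7.73 and 6.92 (slope −3.19, adjusted p = 0.00357). Both were thus ordered along the dilution in the same way as the 5 small heat shock proteins.

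The summed signals of striated muscle, epidermal and nerve cell markers also went down along the dilution. All 10 striated muscle markers had a negative slope, with a median of −6.12 log2, and 5 passed the test. Their summed linear signal was 74890, 61690, 47090, 29010 and 739.6, and the lowest of them in colon was Myh3 at 4.41, at the level of the poly-A controls. Markers of epidermis fell in 3 of 5 genes, with a summed signal of 31420, 26610, 21010, 11540 and 373.7. Nerve cell markers fell in 4 of 6 genes, with a summed signal of 2589, 2270, 1548, 941.1 and 502.5. Their median slope was −2.20 log2. That of the small heat shock proteins was −2.20 with Hspb11 and −2.23 without it. Markers of smooth muscle mostly ran the other way, with 6 of 7 slopes positive, 2 genes rising and none falling. Their summed signal was 13540, 23500, 28510, 30430 and 32360. The negative slope was that of Des, which had 11.53, 11.44, 11.45, 11.42 and 11.13 (slope −0.33, adjusted p = 0.148). The 6 small heat shock proteins summed to 9722, 6821, 4617, 3530 and 2398, so that undiluted colon kept a larger part of their summed whole mouse signal than of the striated muscle markers' signal. This sum is weighted to Hspb1, the brightest of the 6, and includes Hspb11, which rose. The part of muscle, skin or nerve in the falls was not tested.

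**Figure D2:**
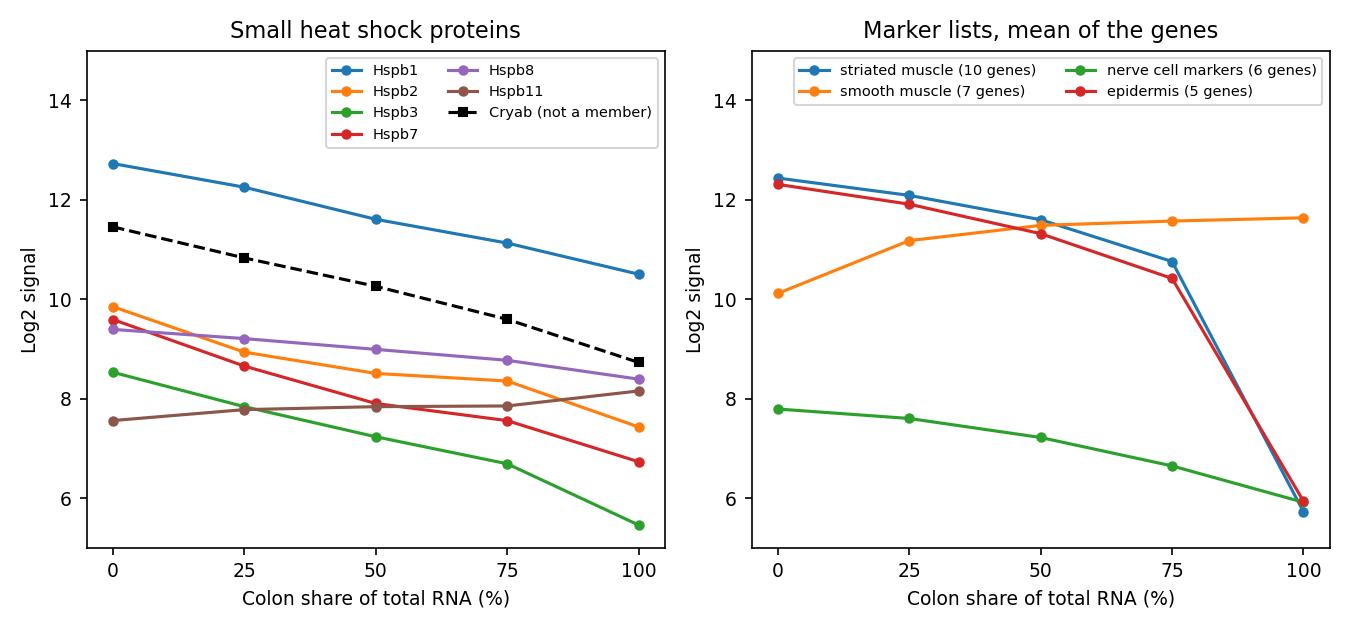
Log2 signal against the colon share of total RNA (%), for the 6 small heat shock proteins and Cryab (left) and for the mean of 4 marker lists (right), 1 array per point. Hspb1, Hspb2, Hspb3, Hspb7 and Hspb8 go down at every step, whereas the striated muscle and epidermal means stay above 10 up to 75% colon and reach 5.73 and 5.94 in undiluted colon. The nerve cell mean goes down at every step, from 7.79 to 5.92.

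The HSP70s and HSP110s had slopes of both signs. Of 12 genes 1 rose and 1 fell, and 3 were at least 2-fold higher and 1 at least 2-fold lower in undiluted colon. The median slope was 0.35 log2. Hspa1a and Hspa1b, neighbouring and nearly identical genes of chromosome 17, encode the HSP70 that is made on heat and other protein stress. Hspa1a had 8.01, 8.95, 9.24, 9.35 and 9.66, in strict rising order, and rose by 1.48 log2 (SE 0.28, adjusted p = 0.0276). It passed in 2 of the 5 leave-one-out fits, and its slope was 0.90 without the whole mouse array. Hspa1b had 8.82, 9.98, 10.65, 10.96 and 10.69, highest at 75% colon and lowest by over 1 log2 in whole mouse. Its fitted slope was larger, 1.89 log2 (SE 0.50), but did not pass (adjusted p = 0.0594).

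The other 2 probe sets of Hspa1b had between 10.02 and 10.86 on the arrays with colon, against 8.44 and 7.99 in whole mouse. Their slopes were 2.15 and 2.40 (adjusted p = 0.0537 and 0.0712), and on all 3 probe sets of Hspa1b the whole mouse array stood apart from the 4 others. Without that array the slope of the brightest was 0.97, and Hspa1b passed when arrays were centred (adjusted p = 0.0324) or when the median over its probe sets was taken (adjusted p = 0.0453). Probes of such near-identical genes can bind either transcript, so the signals of Hspa1a and Hspa1b cannot be fully assigned to 1 gene. Hspa1l, their testis-expressed neighbour, had 5.13, 4.52, 4.36, 4.52 and 4.55, no higher than the poly-A controls.

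Hspa8, the constitutive HSP70 of the cytosol that also uncoats clathrin vesicles, gave different pictures in its 4 probe sets. The brightest had 12.23, 12.61, 12.80, 12.61 and 12.68, highest at 50% colon (slope 0.36, SE 0.20, adjusted p = 0.291), and its slope was 0.010 without the whole mouse array. The second had 12.21, 12.21, 12.48, 12.04 and 12.03, again highest at 50% but lowest in colon (slope −0.22, SE 0.20, adjusted p = 0.53). These 2 probe sets thus had slopes of opposite sign, neither past the threshold. The third had 9.07, 9.57, 10.01, 9.35 and 9.77 (slope 0.47, SE 0.36, adjusted p = 0.442). The dimmest had 4.68, 6.12, 6.52, 6.55 and 6.83, in strict rising order. Its slope was 1.88 (SE 0.48, adjusted p = 0.0538), and its whole mouse value lay within the range of the poly-A controls. These probe sets are annotated to the same gene and are not replicates, and none of them passed.

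**Figure D3:**
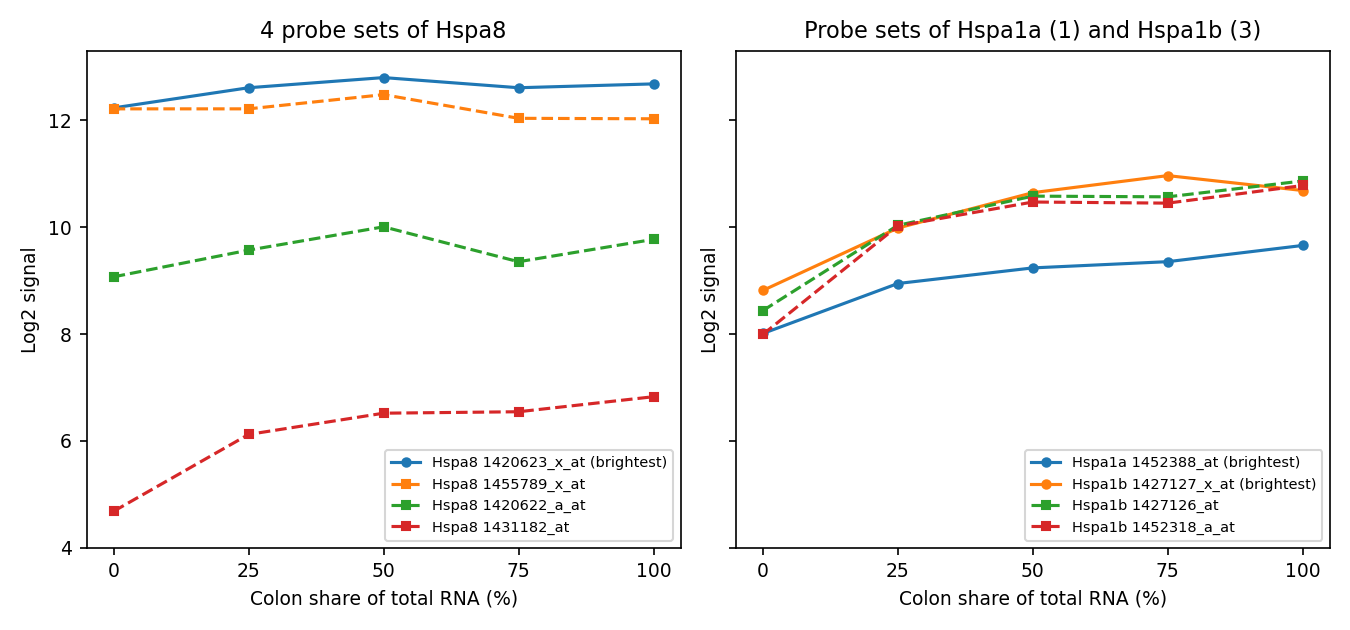
Log2 signal against the colon share of total RNA (%), for the 4 probe sets of Hspa8 (left) and for the probe sets of Hspa1a and Hspa1b (right), 1 array per point, with the brightest probe set of each gene as a solid line. The Hspa8 slopes run from −0.22 to 1.88, whereas all probe sets of Hspa1a and Hspa1b are lowest in whole mouse.

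The 3 HSP110-type exchange factors differed in size. Hsph1, which is heat-inducible, had 9.85, 10.47, 10.33, 10.71 and 10.73, lowest in whole mouse (slope 0.80, SE 0.21, adjusted p = 0.0598). Its other probe set had 7.16 to 7.66 on the 4 arrays with colon, against 6.02 in whole mouse (adjusted p = 0.0518). Hspa4l had 6.29, 7.08, 7.28, 7.17 and 7.50 (slope 1.01, SE 0.28, adjusted p = 0.0674), so it too was lowest in whole mouse, and without that array its slope was 0.46. Hspa4 stayed between 8.74 and 9.08 (adjusted p = 0.988).

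Hspa12b, a distant HSP70 relative expressed in endothelium, was the member of this subfamily that fell. It had 7.22, 7.16, 6.75, 6.51 and 5.80, in strict falling order, with a slope of −1.39 log2 (SE 0.21, adjusted p = 0.0166). It passed in 2 of the 5 leave-one-out fits. Hspa2, known for its role in sperm formation, had 7.14 in colon, against 6.42 in whole mouse, and 6.77 to 6.80 in the mixes (slope 0.58, adjusted p = 0.0643). Hspa14, which works at the ribosome with the J-protein Dnajc2, lay between 8.18 and 8.47 (adjusted p = 0.608), and Dnajc2 between 7.61 and 8.00 (adjusted p = 0.279).

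The heat-inducible genes as a list had 12 measured members, of which Hspa1a rose, Hspb1 fell and 10 did not pass. The median slope was 0.41 log2, and at an unadjusted limma p under 0.05 the slope was positive in 6 genes and negative in 2 (Hspb1 and Dnajb4). Over all genes these shares were 19.8% positive and 21.5% negative. Dnaja1, a main J-protein partner of Hspa8, had 10.20, 10.84, 11.03, 10.93 and 11.13 (slope 0.78, adjusted p = 0.0857). Dnajb1 (HSP40), the J-protein induced with Hspa1a, had 10.38, 10.62, 10.76, 10.95 and 10.81 (slope 0.47, SE 0.15, adjusted p = 0.0927). In both the whole mouse array was the lowest, and without it the slopes were 0.31 for Dnaja1 and 0.30 for Dnajb1. Dnajb4, a heat-inducible relative of Dnajb1, had 7.78, 7.73, 7.44, 7.09 and 7.35 (slope −0.60, adjusted p = 0.102), highest in whole mouse.

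HSP90 and the chaperonin gave small slopes in their brightest probe sets. Hsp90aa1, the inducible cytosolic HSP90, had 10.74, 10.86, 10.86, 10.78 and 10.91 (slope 0.10, SE 0.11, adjusted p = 0.595). Its other 2 probe sets had 8.75 and 6.74 in colon, against 7.39 and 5.56 in whole mouse (slopes 1.14 and 0.94, adjusted p = 0.0529 and 0.0947). With the median over its probe sets Hsp90aa1 passed (slope 1.14, adjusted p = 0.0396). Hspd1 (HSP60) had 11.32, 11.77, 11.60, 11.47 and 11.55, and Hspe1 (HSP10) had 11.33, 11.10, 10.98, 11.07 and 11.07. Their slopes of 0.07 (SE 0.21) and −0.23 (SE 0.14) had opposite signs and did not pass (adjusted p = 0.869 and 0.351). Of 8 mitochondrial chaperones and J-proteins none passed, with 1 at an unadjusted limma p under 0.05, and their slopes ran from −0.28 for Dnajc30 to 0.15 for Dnajc28. Hspa9, the HSP70 of the mitochondrial matrix, lay between 9.94 and 10.19 (adjusted p = 0.728).

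The brightest probe sets of all 8 measured members of the endoplasmic reticulum had positive slopes, as did those of 33 of the 60 members and 48.6% of all genes. The slope of Dnajb12, 0.06 (adjusted p = 0.779), came with 7.57 on both undiluted arrays and 7.42 at 25% colon. Dimmer probe sets of Dnajc1 and Dnajc3 had slopes of −0.012 and −0.028. Of the 8 genes 2 rose and none fell, with a median slope of 0.36 log2. Dnajb11 (ERdj3), which hands unfolded protein to the HSP70 of that compartment, had 8.94, 9.39, 9.46, 9.69 and 9.99. It rose by 0.96 log2 (SE 0.13, adjusted p = 0.0129), in strict order. Dnajc10 (ERdj5), a J-protein that reduces disulfide bonds of misfolded proteins, had 8.56, 9.01, 9.09, 9.28 and 9.55, and rose by 0.90 log2 (SE 0.13, adjusted p = 0.0152). All 3 probe sets of Dnajc10 rose, with slopes from 0.90 to 1.43. Dnajb11 passed in 2 and Dnajc10 in 1 of the 5 leave-one-out fits.

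Hspa5 (BiP), the HSP70 that these J-proteins serve, had 12.02, 12.30, 12.26, 12.26 and 12.46 (slope 0.34, SE 0.13, adjusted p = 0.144). Hsp90b1 (GRP94), its HSP90, had 8.86, 9.46, 9.50, 9.43 and 9.32 (slope 0.35, adjusted p = 0.44). For both, whole mouse was the lowest array. The 4 others lay between 12.26 and 12.46 for Hspa5 and between 9.32 and 9.50 for Hsp90b1. Dnajc3 (p58IPK), which delivers substrates to BiP, had 7.49, 7.63, 8.22, 7.86 and 8.10 (slope 0.58, adjusted p = 0.173). A dimmer of its 5 probe sets rose, with 6.65, 7.43, 7.58, 7.70 and 7.93 (slope 1.13, adjusted p = 0.0347), and the 5 slopes lay between −0.03 and 1.13. Dnajb9 (ERdj4) stayed between 7.63 and 7.95 and Dnajc1 (ERdj1) between 8.24 and 8.74 (adjusted p = 0.192 and 0.209). Genes of the response to endoplasmic reticulum stress had positive slopes as well: 2 of 5 rose, Xbp1 by 1.18 and Sdf2l1 by 0.83, and the markers of colon epithelium, of which 2 of 7 rose, had a median slope of 3.58. Their part in the Dnajb11 and Dnajc10 values was not tested.

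**Figure D4:**
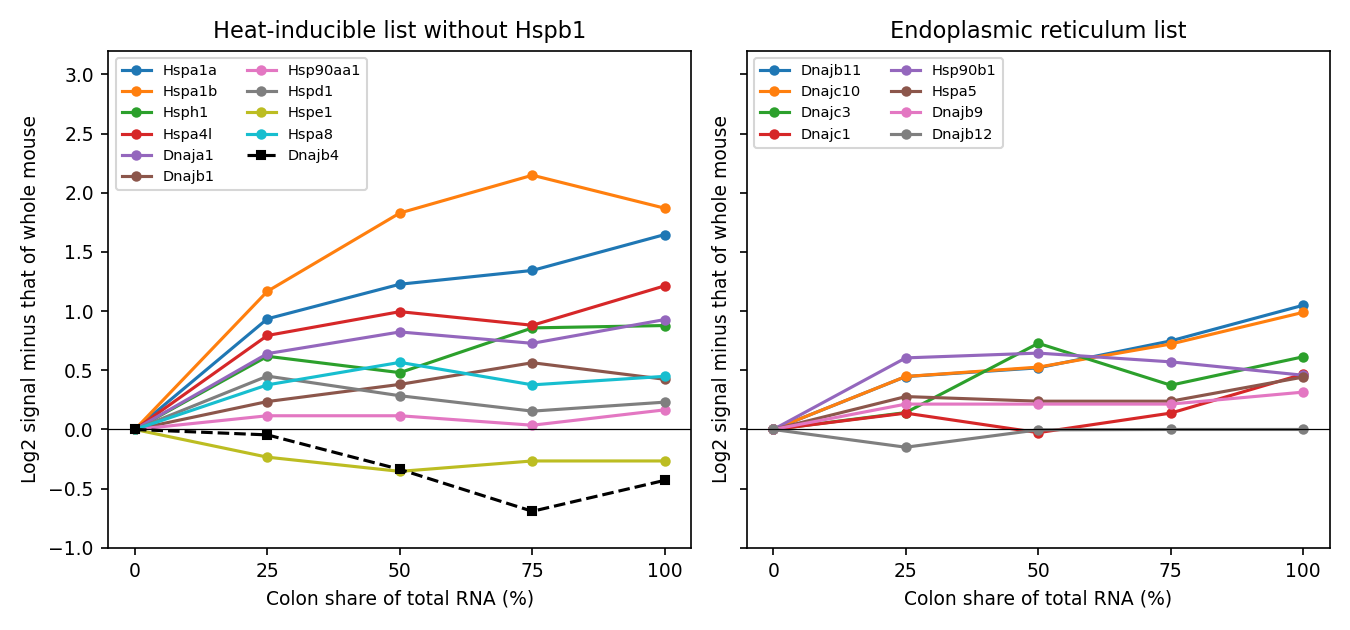
Log2 signal minus that of the whole mouse array, against the colon share of total RNA (%), for 11 heat-inducible genes (left, Hspb1 not drawn) and 8 genes of the endoplasmic reticulum (right), 1 array per point. Hspa1b and Hspa1a climb most, with much of the climb reached at 25% to 50% colon, whereas Dnajb11 and Dnajc10 reach about 1 log2 in undiluted colon.

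The J-proteins formed most of the members, 38 of 60, and most of them did not pass. Among them 2 rose, 1 fell and 35 did not pass, and the slopes ran from −0.89 to 0.96 with a median of 0.05 log2. Of the 4 type A proteins, Dnaja4, which is cytosolic like Dnaja1, fell. It had 8.50, 8.19, 7.94, 7.73 and 7.63, in strict falling order (slope −0.89, SE 0.11, adjusted p = 0.0115). A second of its probe sets fell by 0.55 log2 (adjusted p = 0.0408), and the third stayed between 6.02 and 6.03. Dnaja4 passed in 3 of the 5 leave-one-out fits.

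Dnaja2, another cytosolic partner of HSP70, had 8.54, 8.46, 8.51, 8.66 and 9.01 in its brightest probe set (slope 0.46, adjusted p = 0.128). Its other probe set had 8.21 to 8.60 on the 4 arrays with colon, against 7.19 in whole mouse (slope 1.16, adjusted p = 0.0767). Dnaja3, of the mitochondrial matrix, stayed between 9.43 and 9.60 (adjusted p = 0.601). Dnajb6, which keeps polyglutamine proteins from aggregating, had 9.55, 9.96, 9.80, 9.96 and 10.27 (adjusted p = 0.0813), and slopes between −0.11 and 1.03 in its 4 probe sets.

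The type C proteins share only the J-domain and serve many separate processes. Of 22 measured genes 1, Dnajc10, rose and none fell. Dnajc8, a protein of the spliceosome, had 11.15, 11.16, 11.06, 11.11 and 11.16 (slope −0.0063, SE 0.10, adjusted p = 0.981), and so varied by about 0.1 log2 over the dilution. Dnajc7, a J-protein that bridges HSP70 and HSP90, stayed between 9.33 and 9.48 (adjusted p = 0.824), and Dnajc15 of the mitochondrial import motor between 9.99 and 10.11 (adjusted p = 0.928). Dnajc14, a membrane-bound J-protein, had 8.01, 8.28, 8.33, 8.38 and 8.51, in strict rising order just short of the threshold (slope 0.45, adjusted p = 0.054), and a dimmer probe set of it rose by 0.91 log2 (adjusted p = 0.028). Dnajc13, which acts on endosomes, had 8.05 to 8.39 on the 4 arrays with colon, against 7.45 in whole mouse (slope 0.75, adjusted p = 0.0776). Dnajc9, a nuclear J-protein that is also a histone chaperone, had 8.92, 9.12, 8.79, 8.67 and 8.46, lowest in colon (slope −0.55, adjusted p = 0.0848).

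None of the 7 members known from germ cells or cilia passed, and 2 had a positive slope at an unadjusted limma p under 0.05 (Hspa2 and Hspa4l). Markers of germ cells and cilia were low throughout, with none of 5 passing and a summed signal of 239.0, 215.8, 201.2, 222.3 and 220.3. None of the 4 measured members known from nerve cells passed either, where 24.3% of all genes passed in either direction. None reached an unadjusted limma p under 0.05, and 3 of their 4 slopes were negative, with a median of −0.18. Dnajc5, the cysteine string protein of synaptic vesicles, lay between 10.29 and 10.63 (adjusted p = 0.447) and Dnajb2 between 9.34 and 9.78 (adjusted p = 0.992). Dnajb5 had 7.55 in whole mouse and 6.99 to 7.04 on the 4 arrays with colon (slope −0.43, adjusted p = 0.226). The slope of Dnajc27 was −0.18 (adjusted p = 0.668). Of the 6 nerve cell markers 4 fell.

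The members with several probe sets show how far a gene's value depends on the probe set. Of the 36 such genes, 10 had slopes of both signs, and in 15 the slopes lay more than 0.5 log2 apart. The gap was over 1 log2 in 5 genes: Hspa8, Hspb7, Dnajc3, Dnajb6 and Hsp90aa1. With the median over a gene's probe sets Hspb8 and Hspb11 no longer passed (slopes −0.40 and 0.21, adjusted p = 0.249 and 0.238), and the slopes of Hspb7 and Dnaja4, which still passed, were −1.58 and −0.55. In Hspb7 all slopes were negative, whereas in Hspa8, Dnajc3 and Dnajb6 they had both signs.

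The mixes have a known composition, so each can be set against the weighted mean of the undiluted linear signals. Of the 4 members at least 2-fold higher in colon, all lay above that mean at 25% colon, by a median of 0.35 log2. Over the 1148 genes at least 2-fold higher in colon the median was 0.34. Hspa1b lay 0.43, 0.61 and 0.57 log2 above it at 25%, 50% and 75% colon, and Hspa1a deviated by 0.32, 0.18 and −0.03. Dnajb11 stayed closer, at 0.11, −0.10 and −0.10.

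The 5 small heat shock proteins that fell did not all deviate alike. At 50% colon the deviation was −0.40 log2 for Hspb1, −0.59 for Hspb2, −0.46 for Hspb3 and −0.88 for Hspb7. The median over the 1284 genes at least 2-fold lower in colon was −0.22. Hspb8 lay within 0.06 log2 of the weighted mean at each mix. Hspa12b lay above it in all 3 mixes, by 0.19, 0.07 and 0.20. These deviations rest on 1 array per mix and on 1 undiluted array at each end, and were not tested.

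**Figure D5:**
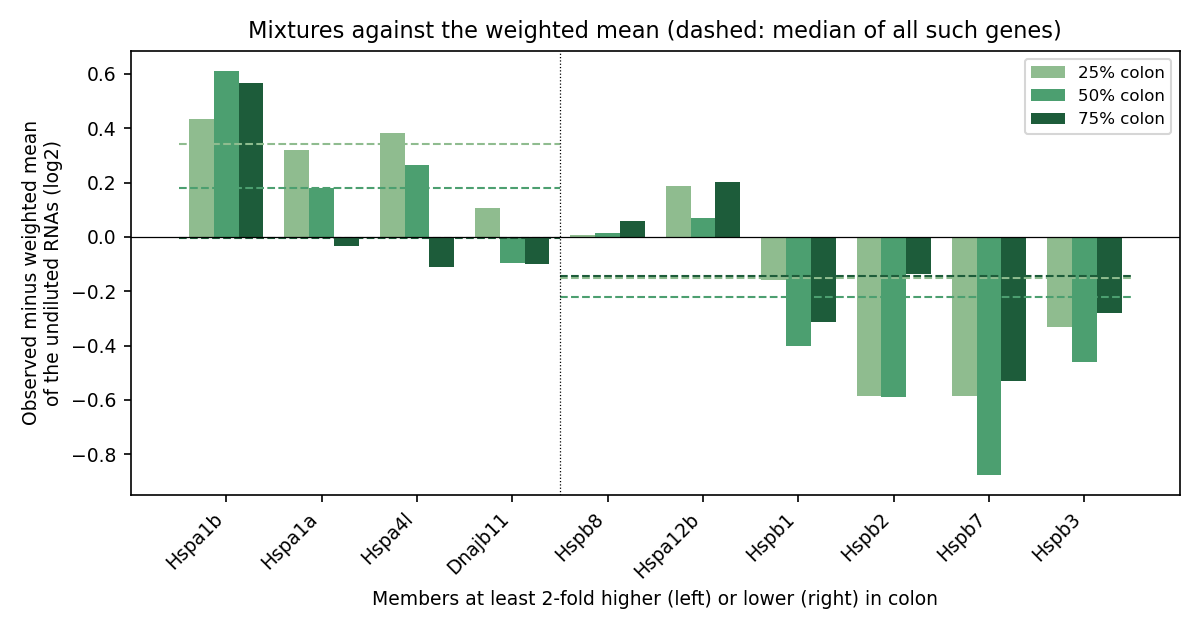
Observed log2 signal of the 3 mixes minus the weighted mean of the undiluted linear signals (log2), for the 10 members that differ 2-fold or more between colon and whole mouse, with dashed lines at the median of all genes that differ as much in that direction. Hspa1b lies highest at 50% colon (0.61) and Hspb7 lowest (−0.88), and Hspb8 lies close to 0.

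Related chaperones outside the members gave 6 rises and 4 falls among 41 measured of 44 listed genes, with a median slope of −0.01 log2. The largest changes were the falls of Cryaa and Cryab given above and the rise of Fkbp5, an HSP90 co-chaperone of steroid receptors that glucocorticoids induce. It had 9.59, 10.65, 11.03, 11.33 and 11.53, in strict rising order (slope 1.82, SE 0.31, adjusted p = 0.0219), while its other probe set had a slope of 0.54. The others that rose, named after their values were seen, were the clathrin-uncoating J-protein kinase Gak (1.02, with 0.22 in its other probe set), the HSP90 immunophilin Fkbp4 (0.87, with −0.18 in its other probe set), the mitochondrial exchange factor Grpel2 (0.87), the BiP exchange factor Sil1 (0.75) and the iron-sulfur J-protein Hscb (0.68). The others that fell were the collagen chaperone Serpinh1 (−1.20) and the heat shock factor binding protein Hsbp1 (−0.45). Cct3, a subunit of the cytosolic chaperonin, had 12.10, 12.07, 11.99, 11.81 and 11.80 (adjusted p = 0.0755). Of 7 immediate-early genes, which like Hspa1a can respond to tissue handling, 4 rose and 1 fell: Fos by 1.92, Atf3 by 1.51, Junb by 1.02 and Ier2 by 0.64, and Egr1 fell by 0.83. Whether tissue handling had a part in the Hspa1a and Hspa1b values was not tested.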

How the data were processed

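Log2 signals per probe set were deposited by the authors, made with RMA, which corrects background, quantile-normalizes the arrays and summarises probes by median polish, per the submitters' processing notes (no version is stated). This summary gave values tied between arrays in 51 of the 121 probe sets of member genes. The 64 control probe sets were left out of the fit. Symbols come from the platform annotation, and all 60 members were matched to RefSeq (GRCm38.p6) by gene identifier. Another 2 probe sets, annotated to Dnajc19 and a pseudogene together, were not used.

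Samples were grouped by the colon share in their titles. Regression of the signals on the colon share, scaled 0 to 1, used limma 3.58.1 (R 4.3.3) and all 5 arrays. It had eBayes moderation, 3 residual degrees of freedom and no filter. The fit was run on simulated straight lines with normal noise, which hold no bend, so this does not check it where signals bend. P-values measure technical spread and any bend of the line, not the spread between mice. The slopes of genes with several probe sets are those of the brightest unless stated. Linear signal is 2 to the power of the log2 signal, and its weighted mean at each colon share was compared with the mixes.

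Alternatives were median-centred arrays, a minimum mean of 6, a variance trend, no moderation, a linear scale, the median over a gene's probe sets and each array left out. Full values are given for members that passed or differed 2-fold, for the brightest of each subfamily and for all probe sets of Hspa8, and the values of other members were added beyond that rule. Of the related chaperones, the 3 largest changes and the brightest gene not past the threshold were named. Members and lists were chosen with earlier results of these data known, so no set test or p adjusted over a list is given.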

Additional observations from a re-analysis of the deposited data

How the results depend on the processing

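Of the small heat shock proteins that fell, 5, there were 1 without moderation, 4 with the median over a gene's probe sets (Hspb8 lost), 4 without the whole mouse array and 3 without the colon array, and 5 in the other fits. The number of members that rose, 4, became 12 with median-centred arrays, 8 without probe sets of a mean under 6, 8 on the linear scale, 8 with the median over a gene's probe sets and 0 in the regression without moderation. It was between 0 and 4 when an array was left out. Over all 22626 probe sets the rises, 1953, became 3148 with centred arrays, 2712 on the linear scale and 39 without moderation. They were 2300 of 14932 without dim probe sets and 1509 of 12393 genes with the median over probe sets. Leaving out an array left between 168 and 1306. The number of members that fell, 7, became 1 (Hspb1) without moderation, where 16 members had an unadjusted p under 0.05. It became 6 with the median over probe sets, and was between 4 and 7 when an array was left out. Over all probe sets the falls, 2456, became 195 without moderation, and 1781 of 12393 genes fell with the median over probe sets. Leaving out an array left between 829 and 1692. Each such fit has 1 residual degree of freedom less, and the fit without moderation has no prior ones. The number of members at least 2-fold higher in undiluted colon, 4, became 7 with centred arrays and 8 with the median over probe sets. The dimmest Hspa8 probe set passed with centred arrays (slope 1.97, adjusted p = 0.0286), without dim probe sets (1.88, adjusted p = 0.0405) and on the linear scale (1.01 per mean signal, adjusted p = 0.0119), and its slope ran from 0.86 to 2.39 when an array was left out. The slope of the brightest Hspa8 probe set ran from 0.010 to 0.53 and that of the second from −0.40 to −0.11. That of the third ran from −0.020 (without the whole mouse array) to 0.66. The slope of Dnajc8 turned to 0.077 with centred arrays and ran from −0.086 to 0.026 when an array was left out, and that of Hspd1 from −0.32 to 0.21, with neither gene passing in any of these fits. The causes were not tested. No paired analysis was possible because each mix has 1 array. Low signal limits Hspa1l, Dnajb3 and Dnajb7, which did not exceed the poly-A controls.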
